A study of Mus musculus with 6 samples.

Results

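The genes for presynaptic release and the ribbon synapse were followed in the developing mouse retina with and without *Lhx4*. The set holds 40 genes, chosen by symbol: active zone scaffolds, the ribbon gene *Ctbp2*, priming factors, SNARE proteins and the pair that takes them apart, complexins, synaptotagmins, synapsins, other vesicle proteins, Rab3 GTPases, and *Dnm1*. All 40 symbols were found once each among the 21744 genes of the deposited table, and all 40 were among the 15200 tested, those averaging 0.1 FPKM or more. FPKM, a fragment count divided by transcript length and by the number of mapped fragments, is scaled to transcript length and library depth, so levels can be compared between genes. Whole retinas, with the pigment epithelium removed, were taken at postnatal day 7 (P7) on a mixed C57BL/6J and 129S6 background, and the retinas of each mouse made 1 library. The labels give the genotype of the 3 control mice only as control. The study describes its electroretinogram controls as wild type or *Lhx4* loxP/+. Its controls for the tdTomato reporter carried the knock-in allele, and it does not say which kind was sequenced. The 3 *Lhx4* null mice carried a tdTomato knock-in allele and a loxP allele of *Lhx4* with the *Six3-Cre* transgene, which deletes in the retina. They may thus differ from the controls in the knock-in and in Cre as well as in *Lhx4*.

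Vesicle release needs an active zone, where scaffolds such as Bassoon, Piccolo, and RIM hold calcium channels beside docked vesicles, and a SNARE complex that fuses the vesicle with the membrane once synaptotagmin binds calcium. Photoreceptors and bipolar cells release glutamate at ribbon synapses, whose ribbon is built from RIBEYE, a product of *Ctbp2*. Amacrine cells release at conventional synapses without a ribbon. The paralogs differ between them: ribbon terminals hold syntaxin 3 and complexins 3 and 4 and lack synapsins, whereas conventional terminals hold syntaxin 1, complexins 1 and 2, and synapsins. Complexin 3 is also found in some amacrine cells.

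The 250 bases before the annotated start are shown for the 5 genes of the set with an unadjusted p under 0.05 from limma between genotypes. None of them had an adjusted p under 0.05. At the same unadjusted level 3.55% of all genes tested were lower and 4.60% higher. *Unc13b*, *Cplx3*, and *Unc13c* were at lower levels in the *Lhx4* null libraries, and *Cplx2* and *Syt6* at higher levels. The sequences are from RefSeq on GRCm38.p6, read 5′ to 3′ on the strand of the gene. Capitals mark every match on either strand to TAATTA, the core that many homeodomains bind, to TAATCC, which CRX and OTX2 bind, or to the E-boxes CACGTG and CATATG.
Unc13b, chr4:43058703-43058952, plus strand: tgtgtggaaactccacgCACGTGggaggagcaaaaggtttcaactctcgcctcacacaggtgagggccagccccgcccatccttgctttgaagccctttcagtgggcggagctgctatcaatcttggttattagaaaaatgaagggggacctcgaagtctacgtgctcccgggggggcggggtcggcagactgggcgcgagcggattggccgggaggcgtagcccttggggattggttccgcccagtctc
Cplx3, chr9:57606282-57606531, minus strand: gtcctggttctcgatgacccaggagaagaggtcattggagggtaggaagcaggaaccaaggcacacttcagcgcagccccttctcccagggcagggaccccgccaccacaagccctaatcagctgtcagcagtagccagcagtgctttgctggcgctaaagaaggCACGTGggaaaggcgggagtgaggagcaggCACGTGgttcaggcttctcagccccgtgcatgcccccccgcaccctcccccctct
Unc13c, chr9:73969038-73969287, minus strand: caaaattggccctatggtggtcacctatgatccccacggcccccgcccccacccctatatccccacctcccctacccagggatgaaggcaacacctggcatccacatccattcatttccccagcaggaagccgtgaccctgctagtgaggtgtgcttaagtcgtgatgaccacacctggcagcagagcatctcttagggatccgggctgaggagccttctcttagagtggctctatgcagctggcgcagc
Cplx2, chr13:54302306-54302555, plus strand: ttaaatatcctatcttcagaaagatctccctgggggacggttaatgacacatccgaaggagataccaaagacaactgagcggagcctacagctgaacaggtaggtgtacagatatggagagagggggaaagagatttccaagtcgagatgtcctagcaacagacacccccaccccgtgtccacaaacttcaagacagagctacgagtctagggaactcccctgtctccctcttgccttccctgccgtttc
Syt6, chr3:103574995-103575244, plus strand, the first of 3 windows listed: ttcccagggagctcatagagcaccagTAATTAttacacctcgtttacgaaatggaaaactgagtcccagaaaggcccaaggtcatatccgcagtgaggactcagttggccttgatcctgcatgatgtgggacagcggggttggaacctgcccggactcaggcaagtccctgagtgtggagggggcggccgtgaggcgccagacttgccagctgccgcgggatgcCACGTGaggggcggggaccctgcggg

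TAATTA occurred in the *Syt6* window alone of these 5, starting 224 bases before the gene start. The *Cplx3* window held CACGTG 2 times, 85 and 55 bases before the start. The *Unc13b* window held it once, at 233 bases, and the *Syt6* window once, at 26 bases. No match was found in the windows of *Unc13c* and *Cplx2*. RefSeq windows were found for 32 of the 40 genes. CACGTG was present for 6 of these (18.8%), *Cplx3*, *Napa*, *Nsf*, *Sv2b*, *Syt6*, and *Unc13b*, against 6.9% of all 27025 genes with a window. A gene counted when any of its windows matched, and the 32 genes had 43 windows. Windows per gene were not compared with those of all genes. The windows of the set had a median of 60.8% G and C, and those of all genes 52.4%. TAATTA was present for 1 of the 32 genes (3.1%, against 5.7% of all genes), TAATCC for *Ctbp2*, *Sv2b*, and *Syp* (9.4%, against 7.2%), and CATATG for 0 of 32 (against 4.0%). These matches describe the letters of the windows and not binding. The RefSeq start used for *Cplx2* lies upstream of the single GENCODE vM21 transcript of the gene, chr13:54371349-54383917.

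The libraries were checked first. *Lhx4* itself measured 20.9, 23.8, and 19.1 FPKM in control replicates 1, 2, and 3. The libraries labelled null measured 31.2, 30.3, and 29.0 FPKM, and the log2 fold change was 0.51 (limma adjusted p = 0.098). The targeted gene was thus not lower in the libraries labelled null, and the gene-level value covers all exons without showing which were read. Every null library was shallower than every control library, at 46.7% to 65.9% of the depth of the deepest library against 76.9% to 100% for the controls. Within each group 1 library had the higher levels for most of the release genes. Control replicate 2 was the highest control for 33 of the 40 genes (82.5%, against 39.0% of all genes tested), and null replicate 1 the highest null library for 25 (62.5%, against 32.3%). The summed FPKM of 17 rod genes was also highest in these libraries, at 6936 in control replicate 2 and 6466 in null replicate 1, with 5962 and 5947 in the other controls and 4798 and 5132 in the other null libraries. The sum of 8 genes of proliferating progenitors was lowest in the same libraries, at 37.1 and 44.5 FPKM, with 55.4 and 59.1 in the other controls and 104 and 71.5 in the other null libraries. Counts without these 2 libraries, and with the rod level as a covariate, are given beside the main ones, and the part of the progenitor level was not tested. Null replicates 2 and 3 had a lower rod level than any control, so that covariate can also remove part of a genotype difference.

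**Figure D1:**
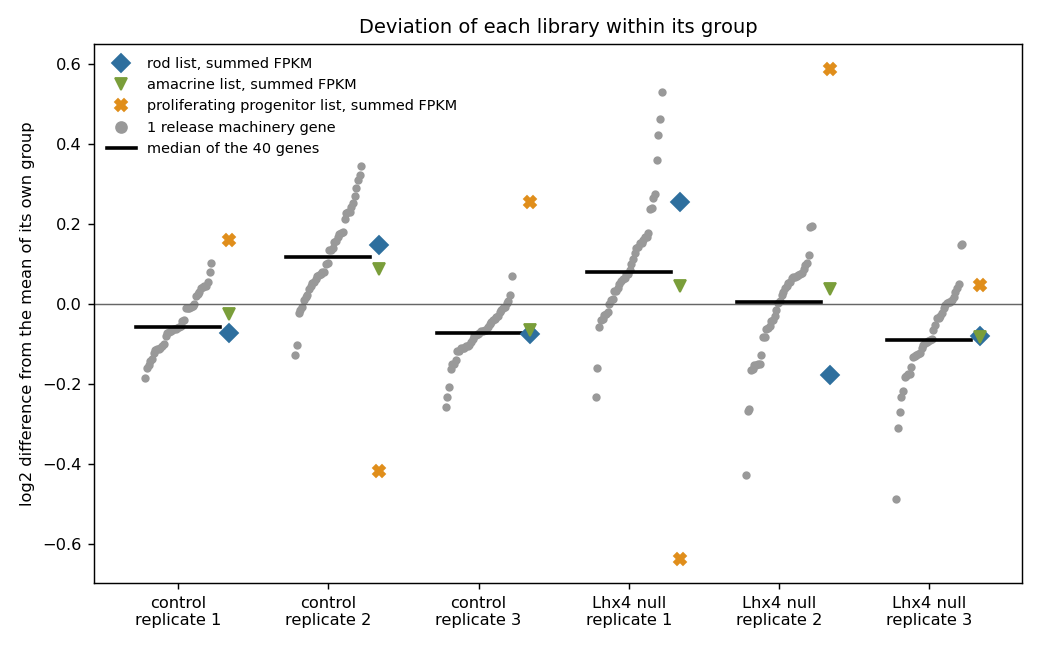
Log2 difference of each library (x axis) from the mean of its own group, for each of the 40 release genes on log2(FPKM + 0.1) (grey points, sorted), their median (black bar), and the log2 summed FPKM of the rod, amacrine, and proliferating progenitor lists (coloured marks). The median of the release genes is highest in control replicate 2 (0.12) and null replicate 1 (0.081), where the rod list is highest and the progenitor list lowest.

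Whether the release machinery differed in the *Lhx4* null retina was asked by comparing all 40 genes between the groups. No gene of the set passed the test after adjustment, and most differed little, with *Unc13b*, *Unc13c*, and *Cplx3* furthest toward lower levels relative to their spread and *Cplx2* toward higher ones. The log2 fold change, null minus control, ran from -0.52 to 0.38 with a median of 0.04, beside 0.01 over all genes tested. By limma with Benjamini-Hochberg adjustment, 0 of the 40 genes had an adjusted p under 0.05 (0.224% of all genes tested did), and the lowest adjusted p in the set was 0.40. At an unadjusted p under 0.05, 3 genes were lower (3.55% of all genes tested) and 2 were higher (4.60%). All 3 null libraries lay below all 3 controls for 3 genes (6.13% of all genes tested) and above them for 5 (8.10%). The 95% interval of the log2 fold change lay inside -0.5 to 0.5 for 33 of the 40 genes (82.5%, against 64.3% of all genes tested), and inside a change of 2-fold for 39 of them (97.5%, against 90.4%). *Cplx4* was the exception, with an interval of -1.06 to 0.03. Without control replicate 2 and null replicate 1, 3 genes, *Unc13b*, *Unc13c*, and *Cplx4*, were lower at an unadjusted p under 0.05 from limma (5.67% of all genes tested in that fit). In the same fit 4 genes, *Cplx2*, *Syt6*, *Cplx1*, and *Rimbp2*, were higher (6.21%). With the rod level as a covariate, 2 were lower, *Unc13b* and *Cplx3* (4.46% of all genes tested), and 6 were higher, *Cplx1*, *Cplx2*, *Syt3*, *Syn1*, *Syn2*, and *Synpr* (4.63%). Under both alternatives 0 had an adjusted p under 0.05 from limma.

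**Figure D2:**
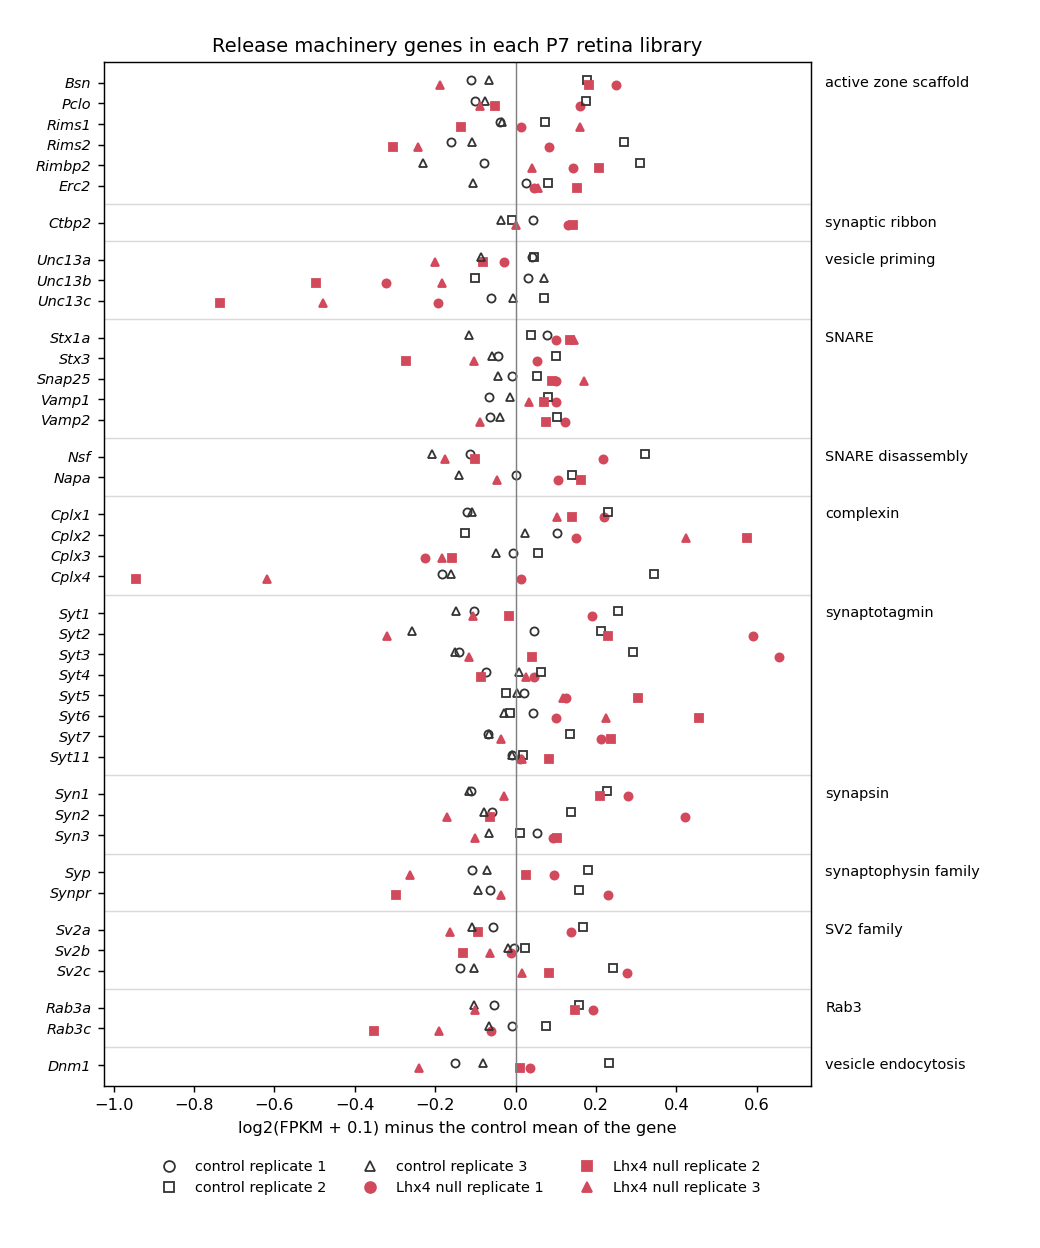
Log2(FPKM + 0.1) of each library minus the control mean of the gene (x axis) for the 40 release genes, grouped by role, with open black symbols for control and filled red symbols for *Lhx4* null replicates. The groups overlap for 32 of the 40 genes, and null replicate 2 of *Cplx4* lies farthest below the control mean.

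In the same libraries a list of 20 bipolar cell genes had 16 lower and 1 higher at an unadjusted p under 0.05 (3.55% and 4.60% of all genes tested, also for the lists that follow), and 8 lower at an adjusted p under 0.05 from limma, with a median log2 fold change of -0.70. The study picked several of these as lowered in these mice, so their direction is not independent evidence. Of 15 amacrine genes, 1 was lower and 4 higher at an unadjusted p under 0.05, with a median of 0.12, and their summed FPKM was 613 to 681 in the controls and 661 to 723 in the null libraries. The 17 rod genes had a median of -0.25, with 1 lower and 0 higher at an unadjusted p under 0.05 from limma and 0 at an adjusted p under 0.05. The 12 cone genes had a median of 0.29, 2 lower and 5 higher at an unadjusted p under 0.05, and 1 higher at an adjusted p under 0.05 from limma. Among 10 Müller glia genes, 0 were lower and 3 higher at an unadjusted p under 0.05 from limma, with 0 at an adjusted p under 0.05 and a median of 0.25. Their summed FPKM was 735 to 819 in the controls and 892 to 919 in the null libraries, without overlap, and its part in the results was not tested. The summed FPKM of 10 pigment epithelium genes was 22.6 to 45.8 in the controls and 48.7 to 85.2 in the null libraries, although that tissue was removed. *Ttr* alone averaged 20.0 FPKM in controls and 37.2 FPKM in null libraries. Of the 10 genes, 0 were lower and 5 higher at an unadjusted p under 0.05 from limma, with 0 at an adjusted p under 0.05. *Mitf* and *Best1* had negative log2 fold changes (-0.05 and -0.50), and the other 8 positive ones. The part of this tissue in the results was not tested. Whole retina was sequenced, and fewer cells of a type and less RNA per cell cannot be told apart.

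None of the 6 active zone scaffold genes had an unadjusted p under 0.05 or groups without overlap. *Bsn* and *Pclo* encode Bassoon and Piccolo, the giant scaffold proteins, and Bassoon anchors the ribbon in photoreceptors. *Bsn* measured 10.2, 12.4, and 10.5 FPKM in controls, listed here and throughout in the order of replicates 1, 2, and 3, against 13.1, 12.5, and 9.63 FPKM in null libraries. *Pclo* measured 13.7, 16.6, and 13.9 FPKM in controls and 16.4, 14.2, and 13.8 FPKM in null libraries. Both groups spanned much the same range, and the log2 fold changes were 0.08 (95% interval -0.23 to 0.39) and 0.01 (-0.24 to 0.25). *Rims1*, the RIM1 gene, had the highest level of the 6 scaffolds, 41.3 ± 1.83 FPKM in controls (mean ± SD, n = 3) and 41.8 ± 4.31 FPKM in null libraries (n = 3). *Rims2*, which encodes the other large RIM, was at 11.8 ± 2.00 and 10.5 ± 1.59 FPKM. *Rimbp2* and *Erc2*, whose products tie RIM to calcium channels and to Bassoon, had mean levels of 9.13 and 7.71 FPKM over the 6 libraries. The log2 fold changes of the 6 genes lay between -0.15 and 0.13, and every interval was inside -0.5 to 0.5. Those of *Pclo* and *Rims1* turned negative under both other scalings of the libraries, at -0.0076 and -0.0021 with the median of ratios. *Rims2*, the scaffold gene with a negative value, turned to 0.084 with the rod level as a covariate.

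*Ctbp2* (chr7:132987563-133124354 on GRCm38, GENCODE vM21) gives rise to both RIBEYE, the ribbon protein, and CtBP2, a transcriptional corepressor, from different starts. The 3 controls read 102, 98.4, and 96.6 FPKM, and the 3 null libraries read 108, 109, and 99.0 FPKM. Null replicates 1 and 2 were above every control and null replicate 3 was inside the range of the controls. The log2 fold change was 0.09 (95% interval -0.07 to 0.25). The value sums over the transcripts of the gene and does not separate RIBEYE from CtBP2, and 5.0% of its exon bases are shared with *Fgfr2*.

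The Unc13 genes encode Munc13 proteins, which prime docked vesicles by opening syntaxin, and all 3 had negative log2 fold changes. *Unc13b* (chr4:43058953-43264871), which encodes the Munc13-2 found at photoreceptor ribbons, was the most abundant of the 3. Its level was 106, 96.4, and 109 FPKM in controls, against 82.7, 73.3, and 91.2 FPKM in null libraries. Every null library was below every control, with group means of 104 ± 6.40 and 82.4 ± 8.91 FPKM (mean ± SD, n = 3 each). This was a log2 difference of -0.33, or 20.7% lower (standard error 0.0936, limma unadjusted p = 0.007, adjusted p = 0.40). It kept an unadjusted p under 0.05 in all 16 alternative fits, between -0.41 and -0.25. *Unc13c* (chr9:73479422-73968966), the least abundant paralog, was at 4.24, 4.65, and 4.40 FPKM in controls and at 3.86, 2.62, and 3.15 FPKM in null libraries. The groups again did not overlap, with null replicate 1 nearest the controls. Its log2 fold change was -0.47 (standard error 0.148, limma unadjusted p = 0.013, adjusted p = 0.48), and with the rod level as a covariate it was -0.26 with an unadjusted p of 0.068 in limma. *Unc13a*, which encodes the Munc13-1 of most conventional synapses, averaged 24.2 ± 1.24 and 22.5 ± 1.35 FPKM, with a log2 fold change of -0.10 (95% interval -0.28 to 0.07). The ratio of *Unc13b* to *Unc13a* within a library, which a single scaling factor per library cannot change, was 4.25, 3.87, and 4.78 in controls and 3.50, 3.21, and 4.34 in null libraries. These ratios overlapped between the groups (exact permutation test, two-sided p = 0.3).

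Of the 4 most abundant genes of the set, 3 were SNARE genes. *Snap25*, the plasma membrane SNARE with a pair of helices, ranked first of the 40 genes, at 422, 440.4, and 411 FPKM in controls and 455, 452, and 478 FPKM in null libraries. Each null library was above each control, but the difference was small, a log2 fold change of 0.12 (95% interval -0.06 to 0.30, limma adjusted p = 0.71). *Stx1a*, the syntaxin of conventional terminals, was at 15.3, 14.9, and 13.4 FPKM in controls and 15.6, 16.0, and 16.1 FPKM in null libraries. It too did not overlap between the groups, with a log2 fold change of 0.13 (-0.05 to 0.31, limma adjusted p = 0.70). *Stx3*, the syntaxin of ribbon terminals, was at 171, 189, and 169 FPKM in controls and 183, 146, and 164 FPKM in null libraries, more than the level of *Stx1a* in every library. Its null values spread from below to inside the range of the controls, with a log2 fold change of -0.11 (-0.33 to 0.11), which turned to 0.035 with the rod level as a covariate. The ratio of *Stx3* to *Stx1a* was 11.1, 12.7, and 12.6 in controls and 11.7, 9.13, and 10.2 in null libraries (exact permutation test, two-sided p = 0.2).

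*Vamp2*, the main vesicle SNARE of neurons, was the third gene by level, at 195, 218, and 198 FPKM in controls and 221, 214, and 191 FPKM in null libraries. Its ranges overlapped almost whole, with a log2 fold change of 0.04 (-0.16 to 0.23). *Vamp1*, its paralog, was far lower at a mean of 10.3 FPKM and had a log2 fold change of 0.07. *Nsf*, the ATPase that takes used SNARE complexes apart, and *Napa*, which encodes the adaptor alpha-SNAP, had log2 fold changes of -0.02 and 0.07. *Nsf* was highest in control replicate 2 (77.8 FPKM) and null replicate 1 (72.3 FPKM), and the other 4 libraries were between 53.8 and 57.9 FPKM.

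**Figure D3:**
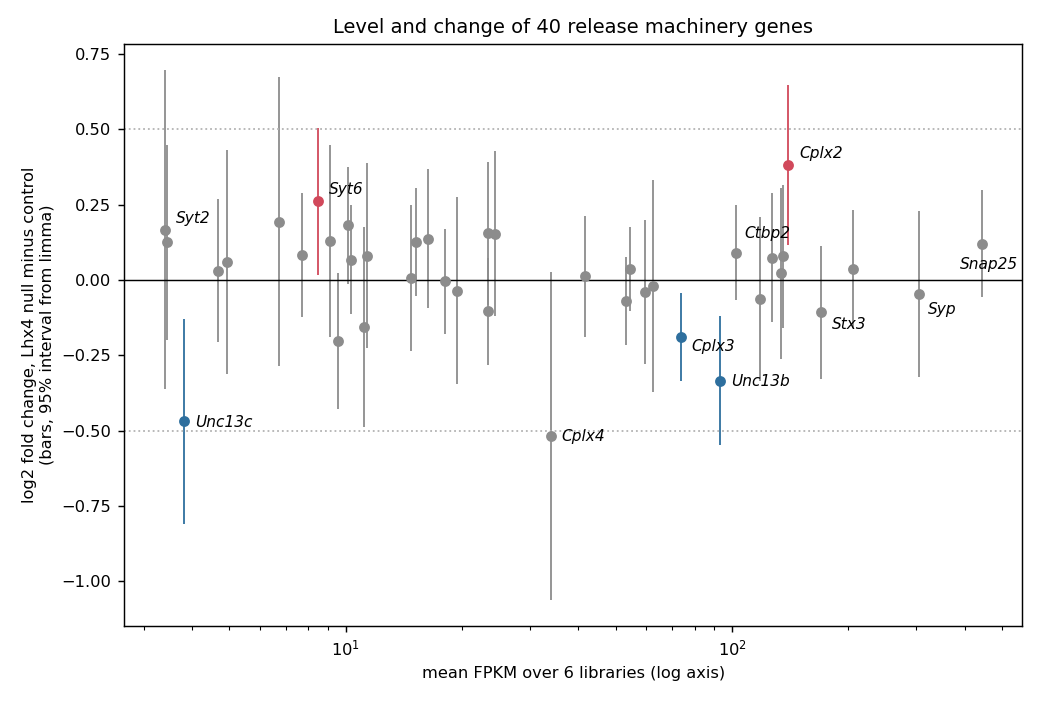
Log2 fold change, *Lhx4* null minus control, with its 95% interval from limma (y axis) against the mean FPKM of the 6 libraries (x axis, log scale) for the 40 release genes. Blue and red mark the 3 lower and 2 higher genes with an unadjusted p under 0.05, grey the others, and dotted lines -0.5 and 0.5. *Cplx4* has the widest interval, -1.06 to 0.03.

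The complexins, small proteins that bind and clamp the SNARE complex, had fold changes of both signs. *Cplx3* (chr9:57599992-57606281), a ribbon synapse complexin, measured 78.1, 81.4, and 75.8 FPKM in controls, against 67.1, 70.3, and 69.1 FPKM in null libraries. The groups did not overlap and both were tight, with means of 78.4 ± 2.84 and 68.8 ± 1.62 FPKM (mean ± SD, n = 3 each). The log2 fold change was -0.19, or 12.2% lower (standard error 0.0634, limma unadjusted p = 0.017, adjusted p = 0.52). Without control replicate 1 or 2 the unadjusted p in limma was 0.060 or 0.058. *Cplx4*, the complexin of photoreceptor ribbons, was at 34.4, 49.6, and 34.9 FPKM in controls and at 39.4, 20.3, and 25.4 FPKM in null libraries. Null replicates 2 and 3 lay below all controls and null replicate 1 among them, so the groups overlapped, with a log2 fold change of -0.52 (-1.06 to 0.03, limma adjusted p = 0.63). Without null replicate 1 the log2 fold change of *Cplx4* was -0.78, with an unadjusted p of 0.0026 in limma, and with the rod level as a covariate it was -0.059.

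*Cplx2* (chr13:54371349-54383917), a complexin of conventional synapses, was at 129.7, 111, and 123 FPKM in controls and at 134, 179.9, and 162 FPKM in null libraries. Each null library was above each control, with null replicate 1 only just so. The log2 fold change was 0.38, or 30.4% higher (standard error 0.116, limma unadjusted p = 0.010, adjusted p = 0.45), and it kept an unadjusted p under 0.05 in all 16 alternative fits, between 0.19 with the rod level as a covariate and 0.50 without null replicate 1. *Cplx1*, the other conventional complexin, was at 20.2, 25.8, and 20.4 FPKM in controls and at 25.7, 24.3, and 23.6 FPKM in null libraries. Control replicate 2 was the highest of all 6 libraries and the other controls were below every null library. The log2 fold change was 0.15 (-0.08 to 0.39), or 0.27 without that library (limma unadjusted p = 0.011).

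The order of the 4 complexins by level was *Cplx2*, *Cplx3*, *Cplx4*, and *Cplx1* in every control library. In the null libraries *Cplx4* (20.3 to 39.4 FPKM) and *Cplx1* (23.6 to 25.7 FPKM) could not be ordered. The ratio of *Cplx2* to *Cplx3* within a library was 1.66, 1.36, and 1.62 in controls and 2.00, 2.56, and 2.35 in null libraries. That of *Cplx1* to *Cplx3* was 0.259, 0.317, and 0.269 against 0.383, 0.345, and 0.342. Neither of these ratios overlapped between the groups (exact permutation test, two-sided p = 0.1 for each, the smallest that 3 libraries against 3 allow). The ratio of *Cplx2* to *Cplx3* could not have overlapped, since *Cplx2* was higher and *Cplx3* lower in every null library than in any control. Its test therefore adds nothing to the values of the 2 genes. The ratio of *Cplx2* to *Cplx4* did overlap, at 3.77, 2.23, and 3.52 in controls and 3.40, 8.88, and 6.38 in null libraries (exact permutation test, two-sided p = 0.3).

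**Figure D4:**
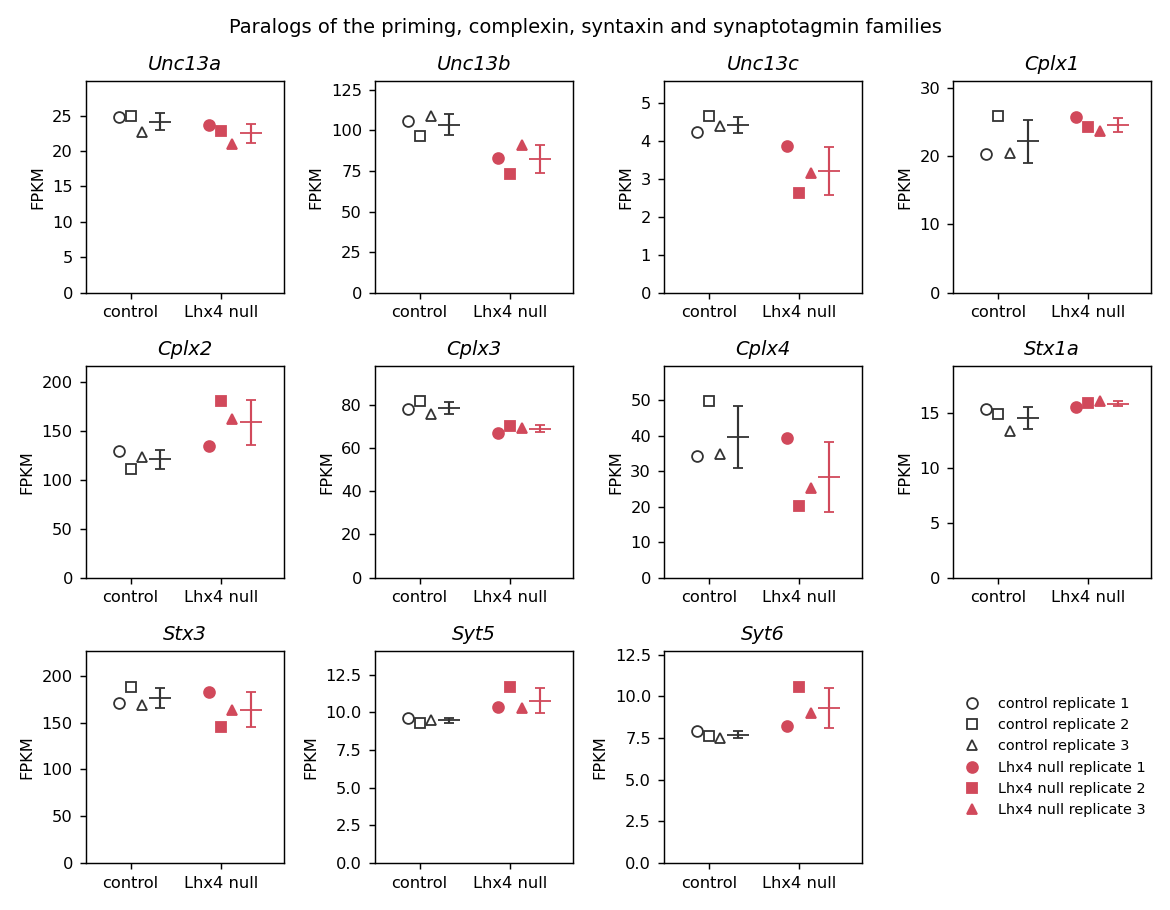
FPKM of each library (symbols, y axis from 0) with the mean ± SD of its group (bar, n = 3) for the Unc13, complexin, and syntaxin genes and *Syt5* and *Syt6*, control in black and *Lhx4* null in red. *Unc13b*, *Unc13c*, and *Cplx3* are lower and *Stx1a*, *Cplx2*, *Syt5*, and *Syt6* higher in every null library than in any control.

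Paralogs of the ribbon and of the conventional terminal were then set side by side, a grouping made after the values were seen and so not tested. Of *Ctbp2*, *Stx3*, *Cplx3*, *Cplx4*, *Unc13b*, and *Sv2b*, 5 had negative log2 fold changes, with a median of -0.15, and *Ctbp2* was the exception. Of *Stx1a*, *Cplx1*, *Cplx2*, *Syn1*, *Syn2*, and *Syn3*, all 6 had positive ones, with a median of 0.14. *Unc13a*, the paralog of most conventional synapses, was in neither list and had a log2 fold change of -0.10. *Bsn*, whose product anchors the ribbon in photoreceptors, was also in neither list and had one of 0.08. The split of signs thus depends on which genes were listed. With the rod level as a covariate *Stx3* changed sign. *Syn2* was at -0.12 without null replicate 1 and -0.050 without both that library and control replicate 2. *Syn3* was at -0.0009 without control replicate 3 and -0.0033 without null replicate 2, so 5 of the 6 conventional paralogs were positive in each of these 4 fits.

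The synaptotagmins are the calcium sensors and their relatives. Those of the set had log2 fold changes from -0.005 to 0.26, 7 of the 8 positive, or 4 of the 8 without null replicate 1. Of the 15200 genes tested, 8104 were positive in the main fit. Outside the set, *Syt9*, *Syt13*, *Syt14*, and *Syt15* had negative values (-0.15, -0.06, -0.13, and -0.37). *Syt10*, *Syt12*, *Syt16*, and *Syt17* had positive ones (0.20, 0.04, 0.045, and 0.07). *Syt1*, the fast sensor of most synapses, was by far the most abundant, at 123, 157, and 119 FPKM in controls and 150.3, 130.3, and 122 FPKM in null libraries, with a log2 fold change of 0.02 (-0.26 to 0.31). *Syt11*, a synaptotagmin that does not bind calcium, was at 53.7 ± 0.581 and 55.1 ± 1.55 FPKM, with the narrowest standard error of the set, 0.0607. *Syt6* (chr3:103575231-103645569) was at 7.93, 7.61, and 7.53 FPKM in controls and 8.25, 10.6, and 9.01 FPKM in null libraries. The null libraries were all above the controls, null replicate 2 by most, and the log2 fold change was 0.26 (standard error 0.106, limma unadjusted p = 0.039, adjusted p = 0.60). The unadjusted p was under 0.05 in 7 of the 16 alternative fits. Leaving out any control, null replicate 2, or null replicate 3 took it to between 0.057 and 0.11 in limma, and without null replicate 2 the log2 fold change was 0.16. *Syt5* was at 9.59, 9.30, and 9.48 FPKM in controls and 10.3, 11.7, and 10.3 FPKM in null libraries, without overlap, with a log2 fold change of 0.18 (-0.01 to 0.38). Of the exon bases of *Syt6*, 8.7% overlap a pseudogene.

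By level the other synaptotagmins of the set followed *Syt1* (134 FPKM over the 6 libraries) in the order *Syt11* (54.4), *Syt4* (18.1), *Syt7* (16.4), *Syt5* (10.1), *Syt6* (8.48), *Syt3* (6.72), and *Syt2* (3.40). Outside the set, *Syt9* (17.2) and *Syt13* (9.07) had levels within this order. The ranges of *Syt4* and *Syt7*, of *Syt5* and *Syt6*, and of *Syt6* and *Syt3* overlapped. *Syt7*, the slow sensor of asynchronous release, had a log2 fold change of 0.14. *Syt2* and *Syt3* had the largest standard errors of the 8, with 2.48 to 4.76 FPKM and 5.66 to 9.73 FPKM over the null libraries alone, highest in null replicate 1. With the rod level as a covariate the log2 fold change of *Syt3* was 0.56 in place of 0.19, with an unadjusted p of 0.0031 in limma.

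None of the synaptophysin, SV2, synapsin, Rab3, and dynamin genes of the set had an unadjusted p under 0.05 or groups without overlap. *Syp*, which encodes synaptophysin, was second in level of the 40, at 285, 348, and 293 FPKM in controls and 329, 313, and 256 FPKM in null libraries. The null libraries ran from below the controls to inside their range, with a log2 fold change of -0.05 (-0.32 to 0.23). *Synpr*, its relative synaptoporin, was at a mean of 19.4 FPKM with a log2 fold change of -0.03, or 0.20 with the rod level as a covariate (limma unadjusted p = 0.047). *Sv2b*, the SV2 isoform of photoreceptor and bipolar cell terminals, was at 54.4, 55.4, and 53.8 FPKM in controls and 54.1, 49.8, and 52.2 FPKM in null libraries. Null replicate 1 was inside the control range and the other 2 below it, and the log2 fold change was -0.07, with an interval of -0.22 to 0.08. *Sv2a*, the ubiquitous isoform, was at nearly the same level (59.6 FPKM, with overlapping ranges), and *Sv2c* was far lower at 3.45 FPKM. Their log2 fold changes were -0.04 and 0.13.

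The synapsins, which tether vesicles in the reserve pool of conventional terminals, were led by *Syn1* at 23.1 ± 3.29 FPKM in controls and 25.7 ± 2.81 FPKM in null libraries. *Syn2* and *Syn3* were near 5 FPKM and could not be ordered. The 3 log2 fold changes were 0.15, 0.06, and 0.03, and without control replicate 2 that of *Syn1* was 0.27 (limma unadjusted p = 0.038). Of the exon bases of *Syn3* and *Syp*, 14.1% and 16.8% are shared with other genes, and whether counting used strand is not given in the sources used here. *Rab3a*, the main vesicle GTPase that binds RIM, was at 132 ± 12.9 and 139.7 ± 14.8 FPKM, with a log2 fold change of 0.08. *Rab3c* was lower in level, at 10.2 ± 0.506 and 8.87 ± 0.899 FPKM, and its log2 fold change was -0.20 (-0.43 to 0.02), or -0.27 without null replicate 1 (limma unadjusted p = 0.027). *Dnm1*, the dynamin that pinches off vesicles in endocytosis, was at 121 ± 17.6 and 115 ± 11.8 FPKM, with a log2 fold change of -0.06.

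The rest of the pathway was read from 75 other genes of release and the vesicle cycle, of which 73 were tested. None had an adjusted p under 0.05 from limma, the lowest being 0.40. At an unadjusted p under 0.05, 6 were lower (8.22%, against 3.55% of all genes tested) and 3 were higher (4.11%, against 4.60%), and the median log2 fold change was -0.0032. The groups did not overlap for 10 lower genes (13.7%, against 6.13% of all genes tested) and 3 higher ones (4.11%, against 8.10%). *Synj2*, which encodes the phosphatase synaptojanin 2, was at 1.17, 2.22, and 1.14 FPKM in controls and at 0.821, 0.803, and 0.654 FPKM in null libraries. All null libraries were lower, and control replicate 2 stood above the other controls. The log2 fold change of *Synj2* was -0.85 (limma unadjusted p = 0.011), and -0.60 with the rod level as a covariate (limma unadjusted p = 0.070). Its far more abundant paralog *Synj1*, also named after its values were seen, averaged 43.4 ± 3.75 and 44.8 ± 5.33 FPKM, with a log2 fold change of 0.04. *Cadps2*, a priming factor of dense-core vesicles, was at 1.30, 1.36, and 1.23 FPKM in controls and 0.765, 1.03, and 0.864 FPKM in null libraries, with a log2 fold change of -0.51 (limma unadjusted p = 0.013). Without control replicate 2 and null replicate 1 it was -0.39 (limma unadjusted p = 0.073). Its paralog *Cadps*, named here after its values were seen, averaged 31.7 ± 2.30 and 25.9 ± 1.59 FPKM, with a log2 fold change of -0.29 (limma unadjusted p = 0.007). *Rab3b*, another Rab3, was at 11.0, 12.9, and 9.63 FPKM in controls and 15.3, 16.1, and 12.2 FPKM in null libraries, which overlapped (log2 fold change 0.38, limma unadjusted p = 0.025). *Cltb*, a clathrin light chain, was at 117, 109, and 116 FPKM in controls and 116, 160.1, and 149.6 FPKM in null libraries, with null replicate 1 among the controls (log2 fold change 0.30, limma unadjusted p = 0.031). The other genes with an unadjusted p under 0.05 were *Amph*, *Vamp8*, and *Dnm3*, all lower, and *Rims3*, higher, by 0.21 to 0.27 on the log2 scale. None of the 3 higher genes kept an unadjusted p under 0.05 without control replicate 1, control replicate 3, or null replicate 2.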

How the data were processed

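Total RNA of 6 P7 retina samples (3 control, 3 *Lhx4* null) was sequenced by the authors with TruSeq libraries and paired-end reads. Per the labels, reads were mapped to GRCm38 with TopHat2, and Cufflinks gave the deposited table, 1 FPKM value per gene and library. Program versions, annotation, and the use of strand are not given in the sources used here. FPKM are not counts, so no count model was fitted. The fit, limma 3.58.1 in R 4.3.3, used log2(FPKM + 0.1) of the 15200 genes averaging 0.1 FPKM or more (lmFit, eBayes with trend, no covariate). Tests were two-sided, and adjusted p-values are Benjamini-Hochberg over all genes tested. The added 0.1 makes changes of weakly expressed genes look smaller. Members and lists were chosen with earlier results of these data known. Every gene of the set is accounted for. Library values are given for those with an unadjusted p under 0.05 or no overlap, the 5 most abundant, *Ctbp2*, *Sv2b*, and the complexins, and also for *Bsn*, *Pclo*, and *Syt1*, added later. Of the other pathway genes, those past 0.3 on the log2 scale at an unadjusted p under 0.05 are given. Positions are GENCODE vM21, and 1 symbol was matched by identifier. Relative depth came from the steps of values under 0.1 FPKM. The fit was tested on simulated data. Replicate numbers share no animal or stated batch. Alternatives changed the pseudocount, filter, scaling, trend, and block and left out each library, and 2 were added after the data were seen. Plots used Python 3.11.15 and matplotlib 3.10.9.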

Additional observations from a re-analysis of the deposited data

How the results depend on the processing

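With 3 libraries a group, small changes in the release genes were not detectable: the intervals of *Cplx4*, *Syt2*, and *Syt3* were the widest. No setting gave any of the 40 genes, or of the other pathway genes, an adjusted p under 0.05 from limma. The 3 lower genes at an unadjusted p under 0.05 became 2 to 5 when 1 library was left out, 5 without null replicate 1, which added *Cplx4* and *Rab3c*. The 2 higher genes became 1 without the trend, 1 with the replicate block, 6 with the rod level as a covariate, 4 without control replicate 2 and null replicate 1, and 1 to 4 when 1 library was left out, 4 without control replicate 2, with *Cplx1*, *Rimbp2*, and *Syn1* added and *Syt6* gone. Deviations of the same-numbered libraries had correlations of r = -0.127, 0, and 0.162 over genes, and other pairs ran from -0.244 to 0.236. The replicate number was therefore treated as a name in the main fit. A shared litter or preparation behind a number is not stated and was not tested. Among the other pathway genes the 3 higher became 6 with the rod level as a covariate and 0 to 5 when 1 library was left out, 0 without control replicate 1, control replicate 3, or null replicate 2. *Stx3* turned to 0.035 with the rod level as a covariate. *Syp* turned to 0.078 with it, and ran from -0.12 to 0.061 when 1 library was left out, positive without control replicate 2 (0.043) or null replicate 3. *Vamp2* ran from -0.0064, without null replicate 1, to 0.10. The cause of these shifts was not tested. When a group was left with 2 libraries, the other group shared its estimate of spread. Leaving out 1 library changed the sign of 15 of the 40 genes at least once. Scaling by the median of ratios or by quantiles changed the sign of *Pclo* and *Rims1* and of no other gene of the 40.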
